A study of Mus musculus with 20 samples.

Results

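Control libraries of a pair of mouse embryonic stem cell lines, the Mettl3 control and the Ythdc1 control, were compared for the places in chromatin-associated RNA where N6-methyladenosine (m6A) immunoprecipitation gave a peak. The peaks of the 4 control lists, 2 per line, were merged per strand wherever they overlapped by at least 1 bp, which gave 65192 regions. A region was taken as line-specific when both lists of one line held a peak in it and neither list of the other line did. By this rule 9531 regions (14.6% of all merged regions) were Mettl3-control-specific and 6494 regions (9.96%) were Ythdc1-control-specific. A further 24733 regions had a peak in all 4 lists, and the rest had some other pattern.

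The series holds 20 samples, 10 immunoprecipitations with a peak list each and 10 inputs that were not analysed here. All of them are C57BL/6 embryonic stem cells grown with LIF and the inhibitors CHIR99021 (of GSK3) and PD0325901 (of MEK). The 10 lists are 2 each of Mettl3 control, Mettl3 KO1, Mettl3 KO2, Ythdc1 cKO and Ythdc1 control. The alleles of each line, how the knockouts were made, what the controls carry and whether a knockout descends from the control of the same name are not given in the sources used here. Whether paired libraries grew as independent cultures is not stated, so every p-value below reflects the spread among these libraries alone, and that spread may be technical. By its title the study asked about the role of m6A in chromatin remodelling and transcription. A comparison of the controls shows how far the baseline differed between the lines that its knockout comparisons rest on.

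m6A is placed on nascent RNA by a complex whose catalytic subunit is METTL3, mostly at adenosines in a short motif with a central GGAC or a close relative of it. YTHDC1 is the nuclear reader of the mark. In messenger RNA the mark is known to be dense in long internal exons and around stop codons, while RNA on chromatin also holds introns, enhancer and promoter transcripts, and transcripts of repeats. In mouse embryonic stem cells it is known to mark transcripts for decay, and chromatin-bound RNA is among them.

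The regions that carry the comparison are shown first as sequence. Below are windows of 101 bases around the summit of line-specific regions, 3 per line, shown because they are the strongest exonic ones among the named genes whose whole window lay in 1 exon and outside any UTR. They were read from GENCODE M21 transcripts (GRCm38, the assembly of mm10), 5′ to 3′ on the RNA strand, and capitals mark GGAC.

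Col8a1, coding exon, chr16:57628556-57628656, minus strand, Mettl3-control-specific: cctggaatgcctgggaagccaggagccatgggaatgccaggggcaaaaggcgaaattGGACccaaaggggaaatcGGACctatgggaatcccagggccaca

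Platr31, non-coding exon, chr6:127109703-127109803, plus strand, Mettl3-control-specific: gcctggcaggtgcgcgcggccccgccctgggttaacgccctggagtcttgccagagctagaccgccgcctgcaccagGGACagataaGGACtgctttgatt

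Xist, non-coding exon, chrX:103466288-103466388, minus strand, Mettl3-control-specific: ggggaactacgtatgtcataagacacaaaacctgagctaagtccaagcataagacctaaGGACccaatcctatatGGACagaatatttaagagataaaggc

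Hsp25-ps1, non-coding exon, chr13:45078851-45078951, minus strand, Ythdc1-control-specific: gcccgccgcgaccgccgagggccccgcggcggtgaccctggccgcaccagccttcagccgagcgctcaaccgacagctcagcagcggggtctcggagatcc

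Syne2, coding exon, chr12:75973306-75973406, plus strand, Ythdc1-control-specific: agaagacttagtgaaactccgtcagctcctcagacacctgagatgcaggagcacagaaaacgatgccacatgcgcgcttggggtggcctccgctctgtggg

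Gm21939, non-coding exon, chr12:87782463-87782563, plus strand, Ythdc1-control-specific: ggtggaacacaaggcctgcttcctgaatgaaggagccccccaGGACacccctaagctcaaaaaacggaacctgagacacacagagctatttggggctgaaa

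The 3 windows of the Mettl3 control held 2 copies of GGAC each, and those of the Ythdc1 control held 0, 0 and 1. Over all line-specific exonic regions the lines did not part in this way. GGAC was present in 46.6% of Mettl3-control-specific windows (380 of 815; 95% Wilson interval 43.2 to 50.1%) and in 46.8% of Ythdc1-control-specific windows (747 of 1596; 44.4 to 49.3%). Among regions in all 4 lists the share was 53.3% (5972 of 11198), and among all exonic regions with such a window it was 50.7% (9113 of 17966). Its reverse complement GTCC, a count of the same letters on the opposite strand, was present in 24.4%, 29.6% and 26.6% of the Mettl3-control-specific, Ythdc1-control-specific and all-4-list windows. Windows inside 1 exon could be had for 815 of 968 Mettl3-control-specific and 1596 of 2678 Ythdc1-control-specific exonic regions because the window had to lie inside 1 exon. The median GC content of the windows was 50.5% for the Mettl3 control, 56.4% for the Ythdc1 control and 53.5% for all exonic regions.

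The lists themselves were of similar size. The Mettl3 controls held 45292 and 46735 peaks and the Ythdc1 controls 43651 and 41941, which covered 18.8 and 19.7 Mb against 18.7 and 17.8 Mb. The median peak was 275 and 277 bp wide in the Mettl3 controls and 290 and 289 bp in the Ythdc1 controls. In peak number, covered length and width the lines did not overlap (exact permutation test over the 4 libraries, two-sided, p = 0.333 each, the smallest p that 2 against 2 allows, adjusted over 4 measures 0.444). Depth is not recorded in a peak list. Solved from the authors' fold enrichment and p-value, the plus-strand background found most often came to 16.38 and 18.15 reads for the Mettl3 controls and to 17.77 and 15.69 reads for the Ythdc1 controls, so the lines overlapped in it. Of the peaks of one list, 82.1 to 87.1% had a peak in the other list of the same line, and 63.3 to 71.6% had one in a list of the other line.

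The 8 strongest Mettl3-control-specific regions in a gene on its own strand, 1 per gene, lay mostly in introns (6 of 8). With regions outside genes counted, an intergenic one at chr12:22718604-22719058 was among the 5 strongest. Fold enrichment is the authors' value at the summit and ranks peaks within a list only, because folds of different libraries share no scale. The highest was in an intron of Lama1, the laminin alpha-1 chain of basement membranes, at chr17:67722355-67722946, with folds of 20.4 and 18.7 in the Mettl3 controls and no peak in either Ythdc1 control. An intron of Radil, a Rap effector in cell adhesion, followed with 17.1 and 16.8. Kbtbd11, a kelch and BTB domain protein, had its single region in the coding exon at chr8:15027554-15029830, with folds of 16.9 and 16.1. That region was the one coding exon among these 8, and the gene had no peak anywhere in the Ythdc1 controls.

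Introns of Ptprg, a receptor tyrosine phosphatase (14.9 and 15.0), Zdhhc2, a palmitoyltransferase (14.2 and 13.7), Sh3rf1, a scaffold of JNK signalling with ubiquitin ligase activity (13.3 and 14.2), and Sipa1l2, a Rap GTPase-activating protein (14.01 and 13.3), came next. Fosb, an immediate early gene of the AP-1 family, had a 5' UTR region with folds of 13.9 and 13.8. Of these 8 regions, 7 also had a peak in all 4 Mettl3 knockout lists, while Fosb had one in both KO1 lists (8.45 and 7.52) and in neither KO2 list. The cKO lists held 6 of the 8 in both libraries and Kbtbd11 in 1 of them, at a fold of 3.28. Over the whole Mettl3-control-specific set, 52.2 to 57.3% of regions had a peak in a given Mettl3 knockout list.

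The strongest Ythdc1-control-specific regions were of more mixed classes. By the smaller of their 2 folds, 3 regions antisense to a gene, chosen after their values were seen, stood above all those that lay in a gene on its own strand. At chr13:67799492-67799856 on the plus strand the folds were 16.6 and 18.1, at chr6:108273238-108273653 on the minus strand, antisense to Itpr1, they were 14.1 and 14.7, and at chr12:91473096-91474830, antisense to Tshr, they were 15.7 and 13.3. Inside genes the first were an intron of Sox6, a SoxD transcription factor (13.3 and 13.2 in the Ythdc1 controls), and Hsp25-ps1, a pseudogene (13.5 and 13.1).

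Introns of Ttll5, a tubulin polyglutamylase (14.1 and 12.2), Pknox2, a TALE homeobox factor (13.1 and 12.2), Rad51b, a gene of homologous recombination (11.8 and 12.3), and Itpr1, the IP3 receptor calcium channel (11.8 and 13.8), were next. Syne2, which encodes the nuclear envelope protein nesprin-2, had a coding exon region with folds of 11.7 and 11.6, and the predicted gene Gm21939 a non-coding exon with 12.0 and 11.4. Pknox2 was the one of these 8 with a peak in all 4 Mettl3 knockout lists (8.78 to 13.1). Of the other 7, Hsp25-ps1 had a peak in 1 Mettl3 knockout list, at 1.97, and 6 had none. All but Ttll5 had a peak in both cKO lists. Over the whole Ythdc1-control-specific set, 37.1 and 39.3% of regions had a peak in the cKO lists.

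**Figure D1:**
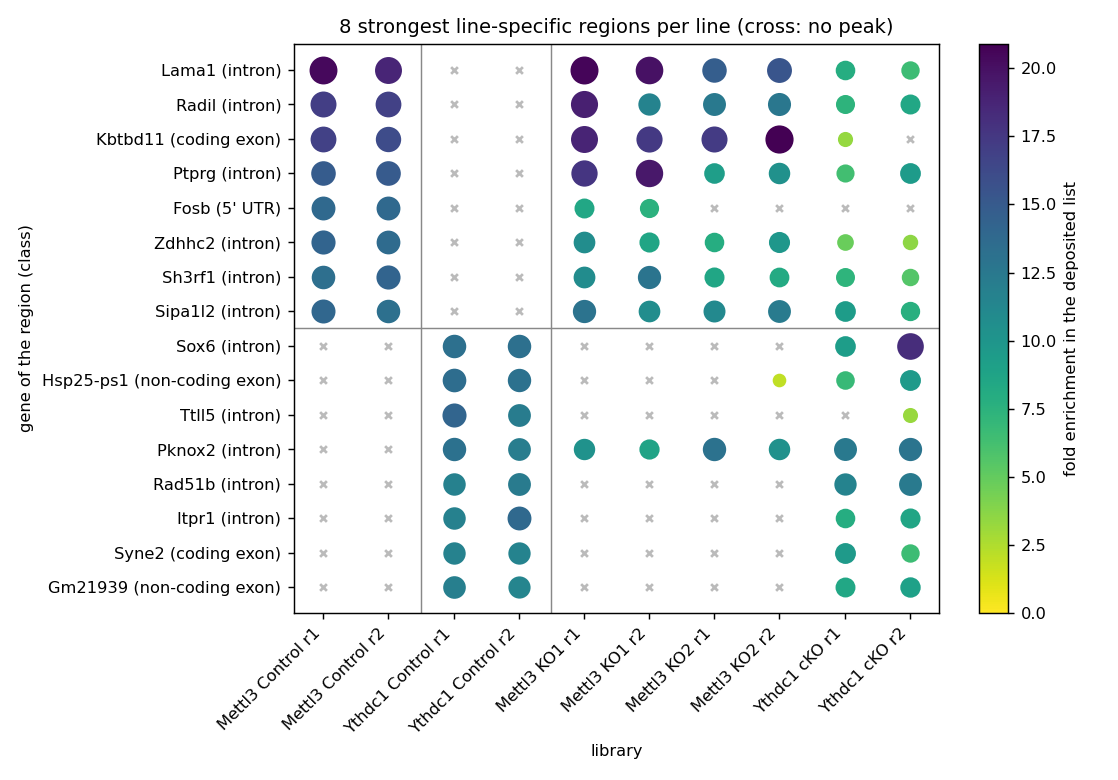
Fold enrichment in each deposited list (colour and size, no unit, ranked within a list only) of the 8 strongest line-specific regions per line; rows are regions, columns the 10 libraries, crosses mark no peak, and the grey lines part the lines and the control from the knockout libraries. Of the 8 Mettl3-control-specific regions 7 had a peak in all 4 Mettl3 knockout lists, and of the 8 Ythdc1-control-specific regions 7 had one in both cKO lists.

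The whole lists differed by class in the same way in both libraries of a line. Coding exons held 20.1 and 19.8% of the peak summits of the Mettl3 controls and 27.3 and 28.2% of those of the Ythdc1 controls, a mean of 19.96% ± 0.191 against 27.7% ± 0.592 (SD, n = 2 each). Intergenic summits made up 15.7 and 15.8% in the Mettl3 controls and 10.3 and 10.1% in the Ythdc1 controls. Introns held 38.2 and 38.2% against 35.1 and 34.1%. The 3' UTR share was 10.7 and 10.7% against 11.7 and 11.8%, and the 5' UTR share 3.18 and 3.23% against 3.98 and 4.27%. In none of the 9 classes did the lines overlap, and in each the difference exceeded the spread within a line (exact permutation test, two-sided, p = 0.333, adjusted over 9 classes 0.333, the smallest possible). The difference in coding exon share was -7.78 percentage points and that in intergenic share 5.57.

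**Figure D2:**
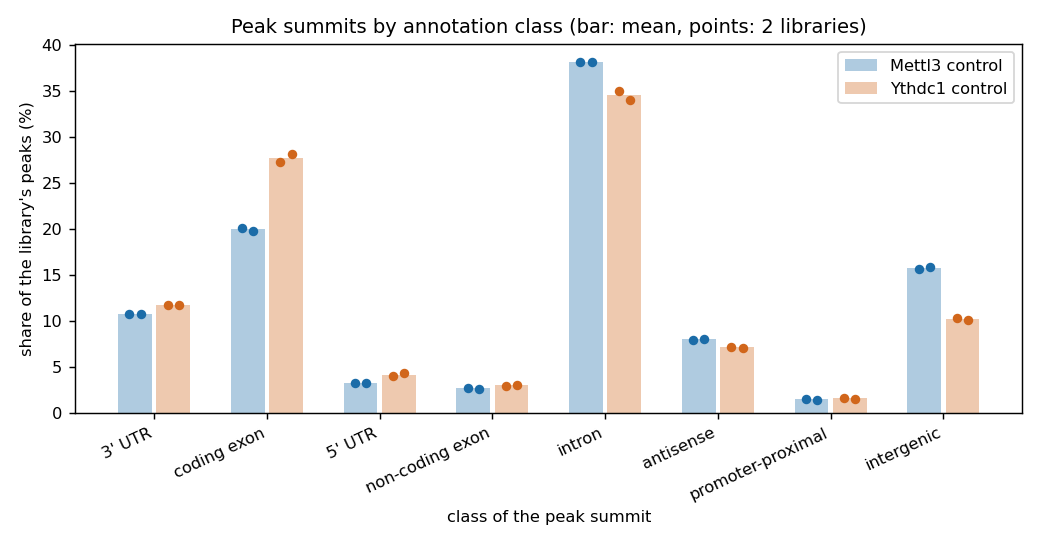
Share of each library's peaks (%, y axis) by the annotation class of the summit (x axis); bars are the means of 2 libraries, points the libraries, Mettl3 control left and Ythdc1 control right of each pair. Coding exon summits were at 19.8 to 20.1% in the Mettl3 controls and 27.3 to 28.2% in the Ythdc1 controls, intergenic summits at 15.7 to 15.8% and 10.1 to 10.3%.

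Among line-specific regions the contrast between classes was wider. Of 13062 coding exon regions 3.03% were Mettl3-control-specific (396) and 13.3% Ythdc1-control-specific (1733). Of the intergenic regions 28.2% were Mettl3-control-specific (2638) and 5.46% Ythdc1-control-specific (510). Introns had 4765 Mettl3-control-specific regions of 26471, against 2638 Ythdc1-control-specific ones, and regions antisense to a gene were at 18.7% against 10.04%. The 5' UTR, with 3.42% against 12.7%, and the 3' UTR, with 4.88% against 7.92%, went the way of the coding exon. Because the rule and these shares use the same peaks, they are given as a description.

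Place within a class moved the balance further. In coding exons of up to 200 nt, 2.41% of regions were Mettl3-control-specific and 25.7% Ythdc1-control-specific, while in those over 400 nt the shares were 3.80% and 5.84%. Long exons were mostly shared, with 74.3% of their regions in all 4 lists against 25.7% for the short ones. In introns the order turned with distance from the gene start. Within 1 kb of the start, 4.82% of regions were Mettl3-control-specific and 16.97% Ythdc1-control-specific, and more than 100 kb into the gene the shares were 24.5% and 6.13%. Gene length showed the same, with 11.1% and 14.7% in genes up to 50 kb and 27.3% and 4.92% in genes over 500 kb. The median gene with a Mettl3-control-specific intron region was 74.9 kb long, that with a Ythdc1-control-specific one 36.9 kb, and that with an intron region in all 4 lists 46.1 kb. Outside genes, distance was measured downstream from the nearest gene end on the same strand. Of regions more than 50 kb from it, 31.0% were Mettl3-control-specific and 4.66% Ythdc1-control-specific, against 19.9% and 7.30% within 5 kb of it.

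**Figure D3:**
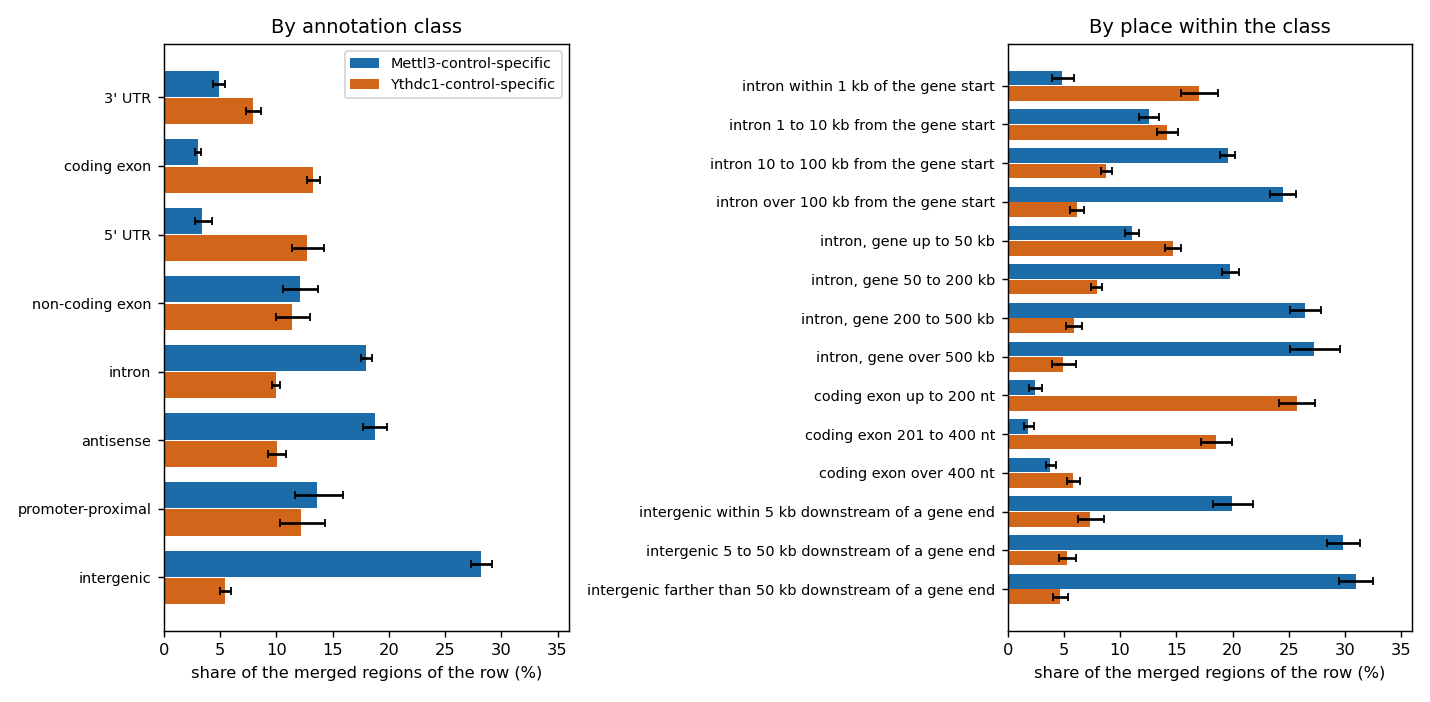
Share of merged regions (%, x axis) that were Mettl3-control-specific (upper bar) and Ythdc1-control-specific (lower bar), by annotation class (left) and by place within introns, coding exons and intergenic sequence (right); black lines are 95% Wilson intervals, counting error only. The shares in coding exons up to 200 nt were 2.41% and 25.7%, and in introns over 100 kb from the gene start 24.5% and 6.13%.

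Line-specific regions were mostly narrow and of modest enrichment. Their median width was 245 bp in the Mettl3 set and 250 bp in the Ythdc1 set, against 517 bp for regions in all 4 lists. The latter join peaks of 4 lists and the former peaks of 2, so the widths are not like for like. The median of the smaller of 2 folds was 3.91 and 3.52. For regions in all 4 lists the median of the smallest of 4 folds was 4.35, a measure that runs lower than the smaller of 2. Regions in both Mettl3 controls were split into 5 about equal groups by the lower of their 2 fold ranks, each rank taken within a list. The share absent from both Ythdc1 controls was 33.4% in the lowest, 38.6% in the next and 5.01% in the highest. The classes differed within these groups. In the highest group, 11.3% of intergenic regions of the Mettl3 controls and 0.385% of their coding exon regions were absent from the Ythdc1 controls. In the lowest group of the Ythdc1 controls, 41.2% of coding exon regions and 27.9% of intergenic regions were absent from the Mettl3 controls. In their highest group the shares were 1.41% for coding exon, 2.14% for intergenic and 2.22% for all regions, so the coding exon did not stand above the rest there. A background estimate moved with the sets as well: 73.3 and 72.3% of the peaks behind Mettl3-control-specific regions had the most common background of their list, against 46.5 and 46.9% of those behind Ythdc1-control-specific regions and 45.8 to 46.7% of those behind shared regions. Its part in the class contrast was not tested. A peak list gives neither RNA level nor the share of molecules that carry m6A. More RNA on chromatin, more m6A per RNA and signal that is not m6A therefore cannot be told apart.

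Of the line-specific regions, 5740 of the Mettl3 control (60.2%) and 5316 of the Ythdc1 control (81.9%) lay in a gene on its strand. Of 12847 genes with a region, 3308 (25.7%) had a Mettl3-control-specific region, 3715 (28.9%) a Ythdc1-control-specific one and 927 both. Of the Mettl3-control-specific regions in genes, 82.2% were in a gene with another region in both Ythdc1 controls, and of the Ythdc1-control-specific ones 78.7% were in a gene with another region in both Mettl3 controls. Genes with a region in both lists of one line and no peak in the other line numbered 616 for the Mettl3 control and 696 for the Ythdc1 control.

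Genes that gathered many Mettl3-control-specific regions were long, from 362 kb (Gucy1a2) to 1051 kb (Gpc6). The median length of all genes with a region was 22.6 kb. Hs6st3, a heparan sulfate 6-O-sulfotransferase, had 20 among its 67 regions, and its strongest line-specific intron region had folds of 16.3 and 12.6. The glypican gene Gpc6 had 17 of 37 and the oxidoreductase gene Wwox 17 of 68. Diaph2, a formin, had 16 of 51 and Gucy1a2, a subunit of soluble guanylate cyclase, 16 of 46. In these 5 genes the Ythdc1 controls had at most 2 specific regions per gene. Their counts are to be read beside the share over intron regions of all long genes. Of those in genes of 200 to 500 kb 26.5% were Mettl3-control-specific, and of those in genes over 500 kb 27.3%. The 171 genes with 5 or more Mettl3-control-specific regions had a median length of 277 kb, and 96.9% of those regions were intronic.

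The genes with most Ythdc1-control-specific regions were shorter in part, from 43.9 kb (Crocc) to 487 kb (Utrn). Syne2 had 18 among its 35 regions and no Mettl3-control-specific one. Dync1h1, the heavy chain of cytoplasmic dynein, had 14 of 28, and Dst, the cytolinker dystonin, 13 of 74 beside 6 Mettl3-control-specific ones. Crocc, the ciliary rootlet protein rootletin, had 12 of 27, with a coding exon region at folds of 8.67 and 9.17. Utrn, the dystrophin relative utrophin, had 10 of 39 and Sptan1, an alpha spectrin, 10 of 17. Over all regions the Ythdc1-control-specific share was 9.96%, and over coding exon regions 13.3%. The 56 genes with 5 or more Ythdc1-control-specific regions had a median length of 89.1 kb, and 42.3% of those regions were in coding exons.

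Among genes with 3 or more regions, some had line-specific regions alone, and the 5 strongest per line are named. In Zdhhc2 all 7 regions were Mettl3-control-specific, with folds from 14.2 and 13.7 in the strongest to 4.03 and 2.52 in the weakest. Only the strongest of them had a peak in any knockout list, and it had one in all 6. Wnt3a, a Wnt ligand, had 4 regions, all Mettl3-control-specific, the strongest an intron with 6.76 and 6.75. Atp10a, a phospholipid flippase gene, Flrt1, an adhesion receptor gene, and the predicted gene Gm15446 also had 4 of 4. None of the regions of Wnt3a, Atp10a, Flrt1 and Gm15446 had a peak in a cKO list.

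In the other direction, Serpina3m, a serine protease inhibitor, had 7 regions, all Ythdc1-control-specific. The strongest was the coding exon at chr12:104389315-104389780 with folds of 9.35 and 11.6. None of the 7 had a peak in a Mettl3 knockout list, and reads of this family of near-identical genes may be split between copies. Aox3, an aldehyde oxidase, had 4 of 4, led by an intron with 8.79 and 9.40. Pebp1, a Raf kinase inhibitor, had 4 of 4, led by a coding exon with 6.98 and 8.77. Cfap43, a protein of the ciliary axoneme, had 3 of 3 with 10.1 and 10.4 in its strongest, and Gm21939 had 3 of 3.

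The targeted genes themselves had peaks in both controls. Mettl3 had 3 regions. One coding exon region, chr14:52299714-52300047, was in all 4 lists, with folds of 6.15 and 5.06 in the Mettl3 controls and 6.97 and 3.44 in the Ythdc1 controls. The neighbouring coding exon region, chr14:52300276-52300498, was Ythdc1-control-specific, with folds of 4.73 and 5.58 and no peak in any knockout list. Of the 7 regions of Ythdc1, 6 were in all 4 control lists. The seventh, an intron region at chr5:86819945-86820108, was Ythdc1-control-specific with 3.04 and 3.36, had a peak in all 4 Mettl3 knockout lists, and had none in a cKO list.

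Lists of genes with a known role were read against the shares over all genes, 25.7% with a Mettl3-control-specific and 28.9% with a Ythdc1-control-specific region, at a median of 2 regions per gene. A gene with more regions has more chances to hold a line-specific one, so the median number of regions per gene of a list is given where the list has several genes of each kind. The cell type label was checked first. Of 20 stem cell markers 19 had a region, at a median of 4 regions per gene, 1 with a Mettl3-control-specific and 8 with a Ythdc1-control-specific one. Among the 8 were the RNA-binding protein gene Lin28a, with a 3' UTR region at 5.53 and 5.71 and no peak in a Mettl3 control, the zinc finger gene Sall4 (coding exon, 5.65 and 4.93) and Nanog (intron, 4.27 and 4.23). The orphan nuclear receptor gene Nr5a2 had regions of both kinds, 3 Mettl3-control-specific and 2 Ythdc1-control-specific ones.

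Of 15 fibroblast markers, 10 had a region, at a median of 2.5 regions per gene, 5 with a Mettl3-control-specific and 3 with a Ythdc1-control-specific one. Col1a1 (coding exon, 3.54 and 4.32), Col1a2 (3' UTR, 3.91 and 3.24), Col5a2 (3' UTR, 3.17 and 4.09) and Lox, a collagen cross-linking enzyme gene, had a region in both Mettl3 controls and none in a Ythdc1 control, whereas Sparc, Vim and Fn1 held the Ythdc1-control-specific ones, and Sparc also 2 Mettl3-control-specific ones. Of 17 collagen genes with a region (median 1), 3 of the fibroblast markers among them, 9 had a Mettl3-control-specific one and 2 a Ythdc1-control-specific one. By regions, fibroblast markers had 6 Mettl3-control-specific and 10 Ythdc1-control-specific ones, and collagen genes 11 and 7. Col4a1, a basement membrane collagen, was among both. It had 1 Mettl3-control-specific region, an intron at 12.97 and 13.05. Its Ythdc1-control-specific regions numbered 3, among them an intron at 7.06 and 5.83 in the Ythdc1 controls. Col8a1, whose sequence is shown above, had 2 coding exon regions, both Mettl3-control-specific, the stronger at 10.3 and 9.46. Peak lists give no cell numbers, and the part of other cell types in the line-specific regions was not tested.

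Markers of other early lineages were read next. Of the primitive endoderm markers 2 of 7 had a region, and Lama1 had 5 Mettl3-control-specific intron and 3 Ythdc1-control-specific coding exon regions. Trophoblast markers had a region in 2 of 5, with Tfap2c Ythdc1-control-specific in an intron at 3.52 and 3.24. Epiblast and germ layer markers had one in 3 of 8, with intron regions of Nes (2.59 and 4.49) and Dnmt3b (2.70 and 1.88) Mettl3-control-specific and the 5' UTR of Sox1 (4.58 and 4.97) Ythdc1-control-specific. Genes of 2-cell-like cells, a rare state in stem cell culture, had 4 of 14 with a Mettl3-control-specific region and 0 of 14 with a Ythdc1-control-specific one. These were coding exons of Tcstv1 (5.96 and 6.58), Zfp352 (6.73 and 4.07), Usp17ld (5.54 and 5.31) and Usp17la (3.39 and 5.27). Tcstv1 and the Usp17l genes belong to families of near-identical copies, so how their reads were placed is uncertain.

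Ribosomal protein and histone genes had few or no Mettl3-control-specific regions. Of 48 ribosomal protein genes with a region (median 1), 0 had a Mettl3-control-specific and 22 a Ythdc1-control-specific one. Rpl29 had a coding exon region at 3.60 and 3.30 and Rpl35 an intron region at 3.11 and 3.34. Replication-dependent histone genes, whose messages end in a stem-loop and carry no poly(A) tail, also had a median of 1 region. Of 53 with a region, 2 had a Mettl3-control-specific and 15 a Ythdc1-control-specific one. Hist1h2bl (4.63 and 4.53) and Hist1h2ac (3.62 and 4.12) had the strongest of the Ythdc1-control-specific ones. Genes of the mitochondrial chromosome were the reverse of these. Of 8 with a region, 6 had a Mettl3-control-specific one and 0 a Ythdc1-control-specific one, among them mt-Nd4 (3.79 and 3.96), mt-Nd2 (3.33 and 3.61) and mt-Cytb (2.66 and 3.07). The named mitochondrial regions had a peak in all 6 knockout lists, so the Ythdc1 controls were the libraries without them.

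Genes of the m6A pathway had 5 of 20 with a Mettl3-control-specific and 11 of 20 with a Ythdc1-control-specific region, at a median of 4 regions per gene. Mettl14, the partner of METTL3 in the writer complex, had a single region, Ythdc1-control-specific. Zc3h13, a writer cofactor, had 3 Ythdc1-control-specific regions, the strongest a coding exon at 7.14 and 6.50, and 1 Mettl3-control-specific intron region (3.66 and 3.74). The demethylase gene Alkbh5 had 1 of each kind, both in introns, at 4.31 and 4.44 in the Mettl3 controls and at 5.97 and 6.95 in the Ythdc1 controls. Igf2bp1, an m6A-binding protein gene, had 2 of each. Nuclear RNA decay genes, with the same median, had 4 of 19 with a Mettl3-control-specific region, among them Zc3h14 (6.39 and 5.38), and 8 of 19 with a Ythdc1-control-specific one, among them the cap-binding subunit gene Ncbp2 (6.44 and 7.79) and the helicase gene Mtrex (4.14 and 5.17).

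Chromatin regulators, with a median of 11 regions each, had 15 of 37 with a Mettl3-control-specific and 22 of 37 with a Ythdc1-control-specific region. Arid1b, a subunit of the BAF remodelling complex, had 4 Mettl3-control-specific intron regions, led by 6.67 and 6.84, beside 2 Ythdc1-control-specific ones, and the histone methyltransferase gene Kmt2b had 5 Ythdc1-control-specific regions, led by a coding exon at 4.54 and 5.27. DNA methylation genes, with a median of 7 regions, had 5 of 9 with each kind. Dnmt1, the maintenance methyltransferase, had 5 Ythdc1-control-specific regions of its 12 and no Mettl3-control-specific one, the strongest at 4.49 and 3.61. Dnmt3a had 1 Mettl3-control-specific intron region at 5.58 and 5.00. Zinc finger genes, with a median of 3 regions, were close to even, with 73 of 336 and 72 of 336. Germline genes repressed by DNA methylation had 4 of 20 with a region, of which 1 had a Mettl3-control-specific one (Stk31, 2.76 and 2.56) and 2 a Ythdc1-control-specific one, Rhox6 (5.65 and 4.55) and Rhox9 (4.14 and 3.40).

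Genes downstream of the culture conditions were split. Wnt targets and feedback genes, the pathway that CHIR99021 acts on, had a median of 5 regions per gene. Of 14 with a region, 4 had a Mettl3-control-specific and 7 a Ythdc1-control-specific one. Tcf7l2 had 2 Mettl3-control-specific intron regions, led by 6.10 and 5.48, and Myc had 2 Ythdc1-control-specific regions, led by a coding exon at 4.58 and 4.02. Of 18 MAPK feedback and immediate early genes, the pathway that PD0325901 acts on, 4 had each kind, at a median of 1 region per gene. Fos (3' UTR, 11.9 and 8.63), Fosl2 (3' UTR, 5.06 and 5.90) and Egr1 (coding exon, 6.28 and 8.44) had peaks in both Mettl3 controls and none in a Ythdc1 control. Fosb, named above, was not in this list, and its 2 regions were both Mettl3-control-specific. Dusp6, a phosphatase of ERK (coding exon, 3.62 and 5.09), and the inhibitor gene Spry2 (intron, 2.16 and 2.17) had Ythdc1-control-specific ones. LIF and STAT3 genes, with a median of 4 regions, had 1 of 9 and 3 of 9, the second including the receptor gene Lifr (5' UTR, 2.95 and 6.95).

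Among non-coding and imprinted genes, Xist, the RNA that coats the inactive X chromosome, had 2 Mettl3-control-specific regions, at 8.10 and 7.19 and at 4.51 and 5.97. A further region, chrX:103467455-103467604, had a peak in 1 Mettl3 control list (3.04), in all 4 Mettl3 knockout lists (3.29 to 4.45) and in neither cKO list. The Ythdc1 controls had no peak in the gene. Tsix, its antisense transcript, had 3 regions, all in all 4 lists. Both cKO lists had a peak in the 2 Mettl3-control-specific Xist regions (5.21 to 6.34), and of the 4 Mettl3 knockout lists 1 KO1 list had one, in the first of them (2.74). Nuclear long non-coding RNAs, with a median of 4.5 regions, had 7 of 16 with a Mettl3-control-specific region, led by Platr31 (10.6 and 9.08), and 5 of 16 with a Ythdc1-control-specific one, led by Platr17 (4.48 and 3.30). Imprinted genes, with a median of 3.5 regions, had 15 of 30 and 11 of 30. Trappc9 had 8 Mettl3-control-specific intron regions among 19 and no Ythdc1-control-specific one, while Peg13, a non-coding RNA on the same strand inside the Trappc9 locus, had a Ythdc1-control-specific region (6.78 and 7.43).

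Chromosomes differed in the balance of the lines. On X, 20.7% of 1998 regions were Mettl3-control-specific and 6.56% Ythdc1-control-specific. On Y, 35 of 114 regions were Mettl3-control-specific and 1 was Ythdc1-control-specific, while 35 were in all 4 lists. On chromosomes 6 and 8 the shares were 18.2% against 7.59% and 16.6% against 6.99%. Chromosome 19, with 11.7% against 12.98%, and chromosome 11, with 10.49% against 12.1%, had more Ythdc1-control-specific regions. Of all peaks, X held 3.24 and 3.20% in the Mettl3 controls and 2.60 and 2.51% in the Ythdc1 controls, and Y held 0.210 and 0.205% against 0.105 and 0.114% (exact permutation test, two-sided, p = 0.333 each, the smallest possible, adjusted over all chromosomes 0.349). On X and Y the cKO lists did not follow the Ythdc1 controls. The Mettl3 knockout lists were near the Mettl3 controls on Y and lay on both sides of them on X. Y held 0.205 to 0.227% in the Mettl3 knockouts and 0.207 and 0.211% in the cKO. X held 2.89 to 3.40% and 3.97 and 3.91%. Chromosome 8 held 6.39 and 6.48% of peaks in the Mettl3 controls, 5.84 and 5.79% in the Ythdc1 controls and 5.34 to 5.78% in the Mettl3 knockouts. In the cKO lists chromosome 8 held 5.54 and 5.60%. The sex and karyotype of the lines are not given in the sources used here. Of 9 Y-linked genes 2 had a region, and Usp9y had its single intron region in both Mettl3 controls (3.41 and 3.32).

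**Figure D4:**
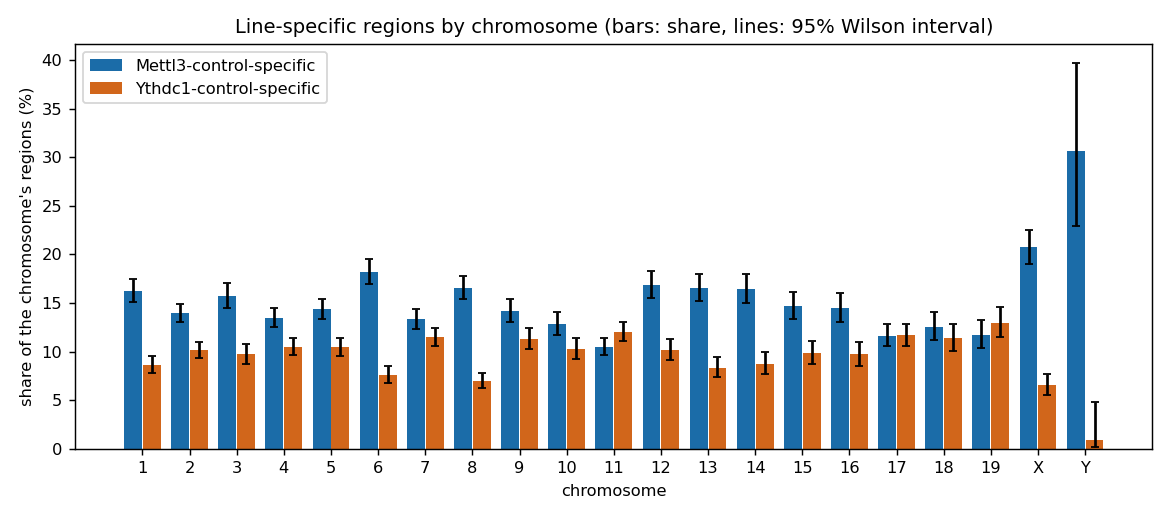
Share of each chromosome's merged regions (%, y axis) that were Mettl3-control-specific (left bar) and Ythdc1-control-specific (right bar), by chromosome (x axis, without the mitochondrial one); black lines are 95% Wilson intervals, counting error only. X (20.7% and 6.56%) and Y (30.7% and 0.877%) had the widest gaps of those drawn, and on chromosomes 11, 17 and 19 the Ythdc1-control-specific share was the higher.

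Windows of 1 Mb were ranked by their line-specific regions, as a description, and shares were read in windows with 20 or more regions. The highest share was in chr1:103000001-104000000, with 23 Mettl3-control-specific regions among 28 and none in all 4 lists, 22 of them intergenic. Around Grin2a, an NMDA receptor subunit gene, chr16:9000001-10000000 had 19 of 27, with 7 in the gene. The window with the most, chr2:177000001-178000000, had 53 Mettl3-control-specific regions among 185 (28.6%), all intergenic. Over all intergenic regions the share was 28.2%, and over all regions 14.6%. For the Ythdc1 control the highest shares, under the same limit, were 13 of 27 at chr13:56000001-57000000 and 23 of 57 at chr6:93000001-94000000, where 5 lay in the scaffold gene Magi1 and 18 were intergenic. The window with the most, chr17:35000001-36000000, had 34 of 134 (25.4%, against 9.96% over all regions), none of them intergenic.

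Outside genes the strongest regions were also named by position. For the Mettl3 control they lay at chr12:22718604-22719058 (14.5 and 14.05), chr12:21875086-21875580 (13.999 and 12.6) and chr2:169012274-169012684 (13.1 and 12.2). The nearest protein-coding or long intergenic non-coding RNA genes were Gm47997, Gm4425 and Gm9873, at 201430, 240530 and 7528 bp. All 3 regions had a peak in all 6 knockout lists. For the Ythdc1 control they lay at chr19:61170125-61171270 (11.5 and 12.0), chr6:93431788-93432215 (10.3 and 14.4) and chr6:108081326-108082248 (8.999 and 9.76). The nearest genes of these types were Gm7102, Magi1 and Setmar, at 3752, 243382 and 4352 bp. All 3 regions had a peak in both cKO lists and none in KO1.

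The 6 knockout lists, which the rule did not use, showed which line-specific regions were called again. Of the Mettl3-control-specific regions, 52.9 and 52.2% had a peak in the KO1 lists, 57.3 and 53.3% in the KO2 lists and 40.7 and 40.6% in the cKO lists. The mean was 53.9% ± 2.27 (SD, n = 4) in the Mettl3 knockouts and 40.7% ± 0.0297 (SD, n = 2) in the cKO (exact permutation test, two-sided, p = 0.0667, the smallest that 4 against 2 allows; adjusted over 27 such tests 0.164). Of the Ythdc1-control-specific regions, 15.8 and 18.02% had a peak in KO1, 28.2 and 28.1% in KO2 and 37.1 and 39.3% in the cKO. Here the groups did not overlap either, with means of 22.5% ± 6.54 (SD, n = 4) and 38.2% ± 1.52 (SD, n = 2; exact permutation test, two-sided, p = 0.133, adjusted 0.164). This p was above the smallest possible because KO1 set apart from the other libraries gave a gap at least as wide. The 4 Mettl3 knockout libraries are 2 each of KO1 and KO2, so they are not 4 independent replicates of a knockout. For regions in all 4 control lists the shares were 79.1 to 86.3% in the Mettl3 knockouts and 90.1 and 90.3% in the cKO. Whether a peak called in a Mettl3 knockout list marks m6A was not tested. The Mettl3 knockout lists were shorter, with 40959 to 44496 peaks against 45468 and 45599 in the cKO.

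By class, the Mettl3-control-specific intron regions were called again most often in the Mettl3 knockouts, 73.7 and 72.1% in KO1 and 65.2 and 61.2% in KO2, against 36.1 and 36.6% in the cKO (exact permutation test, two-sided, p = 0.0667, adjusted 0.164). The intergenic ones were called in 32.0 and 32.4% in KO1, 52.0 and 48.0% in KO2 and 50.4 and 49.6% in the cKO, so the groups overlapped (p = 0.333, adjusted 0.391, exact permutation test). Of the Ythdc1-control-specific intergenic regions, 9.61 and 9.80% were called in KO1, 26.7 and 22.4% in KO2 and 55.3 and 53.9% in the cKO (p = 0.0667, adjusted 0.164, exact permutation test). Coding exon regions of that set were called in 14.5 and 16.8% in KO1, 30.0 and 31.9% in KO2 and 33.0 and 35.5% in the cKO (p = 0.133, adjusted 0.164, exact permutation test). Regions in all 4 control lists had the same order in both classes. Their intergenic shares were 59.6 and 60.8% in KO1, 77.9 and 76.1% in KO2 and 89.9 and 90.1% in the cKO. Their coding exon shares were 85.2 to 90.1% in the Mettl3 knockouts and 93.5 and 93.6% in the cKO. Their intron shares were 83.5 to 86.1% and 87.0 and 87.7%. Of the 100 strongest Mettl3-control-specific regions 81 were in all 6 knockout lists, against 13.1% of the whole set. Of the 100 strongest Ythdc1-control-specific regions 15 were, against 2.28% of the whole set. A further 33 of these were in both cKO lists and in no Mettl3 knockout list, against 14.9% of the whole set.

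**Figure D5:**
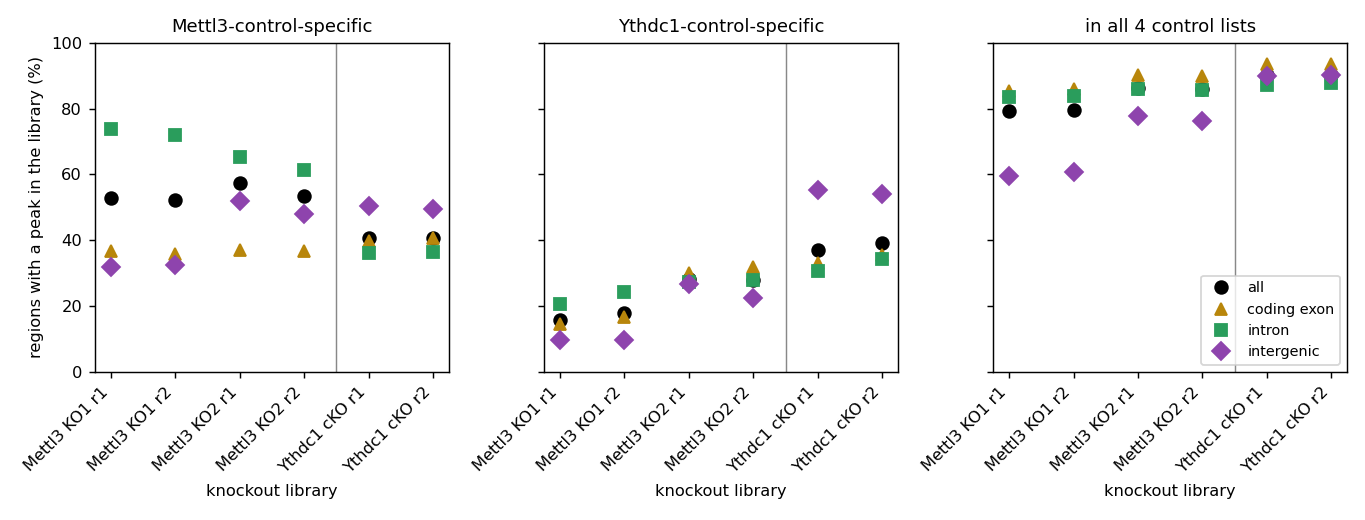
Share of regions (%, y axis) with a peak in each of the 6 knockout libraries (x axis), for Mettl3-control-specific regions (left), Ythdc1-control-specific regions (middle) and regions in all 4 control lists (right); each symbol is 1 library and 1 class, and the grey line parts Mettl3 knockout from cKO libraries. Over all classes the Mettl3-control-specific shares were 52.2 to 57.3% in the Mettl3 knockouts and 40.6 to 40.7% in the cKO, and the Ythdc1-control-specific shares 15.8 to 28.2% and 37.1 to 39.3%.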

How the data were processed

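The labels describe m6A immunoprecipitation of chromatin-associated RNA, and 10 deposited peak lists were used, 1 per library; the 10 inputs were not analysed here. The submitters' processing notes name CASAVA, Trimmomatic 0.38, HISAT2 2.1.0, MACS2 and mm10; the sources used here do not give the MACS2 version, its settings or whether the input served as background. The peak names show that the authors called peaks per library and strand. In the deposited lists each peak carries a fold enrichment at the summit (a ratio over the background of the same library), −log10 p and −log10 q values, a score (10 times −log10 q, cut to a whole number) and the summit's position, all made by the authors with MACS2. The lowest −log10 q was 2.00 and the shortest peak 150 bp. A list gives no read depth, and intervals cover counting error only.

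Merging was per strand with at least 1 bp of overlap and took in the numbered and sex chromosomes and the mitochondrial one. A region took the class of its strongest summit in GENCODE M21 basic annotation (55450 genes), where the first that fits counts: mitochondrial, 3' UTR, coding exon, then 5' UTR, then exon of a non-coding transcript, intron, antisense to a gene, within 2 kb upstream of a gene, intergenic. A gene was credited with the regions on its strand. Lines were compared over libraries by exact permutation tests with Benjamini-Hochberg adjustment, two-sided (6 assignments for 2 against 2, 15 for 4 against 2). The background pile-up was solved from fold and −log10 p under a Poisson model, and matched within 0.002 for 100% of peaks. The steps were tested on simulated peaks. Python 3.11.15, numpy 2.4.6, pandas 2.3.3 and scipy 1.17.1 were used.

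Named per line were the 8 genes with the strongest line-specific regions by the smaller of the 2 folds, the 6 genes with the most, the 5 strongest genes of 3 or more regions that were all line-specific, up to 4 members of each gene list, the 3 strongest intergenic regions, and Mettl3 and Ythdc1. Members outside this rule, such as Lox, Mettl14 and Tsix, were named after their values were seen. A few genes that the rule names are not reported here. The regions and gene lists were chosen with earlier results of these data known.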

Additional observations from a re-analysis of the deposited data

Results flagged for a closer look

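The 4 control lists held 94 peaks outside chromosomes 1 to 19, X, Y and M, which no comparison used. They drew attention as signal in data left out of the main measurement. The Mettl3 controls had 21 and 26 of them and the Ythdc1 controls 25 and 22, so the lines overlapped. Of these, 1 and 2 peaks in the Mettl3 controls and 1 and 2 in the Ythdc1 controls lay on the control RNA of the kit, and the rest on unplaced contigs.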

How the results depend on the processing

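The differences in class share, peak number and retention kept their direction under every alternative run for them, as did the gaps between lines in line-specific share. The order of the line-specific counts did not: the Mettl3 control had 11001 regions and the Ythdc1 control 11100 without Ythdc1 control replicate 2, and 4476 and 4328 genes without Mettl3 control replicate 1, against 9531 and 6494 regions and 3308 and 3715 genes with all libraries. With the 40959 strongest peaks of each list, the gap between lines in line-specific share was -12.5 percentage points in coding exons and 19.97 in intergenic regions, against -10.2 and 22.8 with all peaks. In the alternatives chosen after seeing the data, asking for no peak of the other line within 1000 bp gave -8.08 and 18.6. Asking for a −log10 q of at least 20 in both lists gave 4987 Mettl3-control-specific and 3143 Ythdc1-control-specific regions, 1990 and 2001 genes, and gaps of -5.52 and 13.3, each count having moved by over 1.5 times. Of the named regions 101 of 141 and 105 of 156 kept their call there. Leaving out 1 library, which asks for 1 list in place of 2 on its side or on the other, gave 11001 to 14334 Mettl3-control-specific regions, 7863 to 11100 Ythdc1-control-specific regions, 3782 to 4476 and 4328 to 5409 genes, and gaps of -18.3 to -10.6 and 22.05 to 36.6. Among these, the counts that moved by over 1.5 times were 14334 Mettl3-control-specific regions without Mettl3 control replicate 1, and 10125 and 11100 Ythdc1-control-specific regions without Ythdc1 control replicates 1 and 2. With the replicate block, the coding exon share differed by -7.78 percentage points (exact sign flips, p = 0.5, the smallest possible). The numbers were not shown to pair the libraries, since the log2 ratio of the folds of replicates 1 and 2 correlated between lines at r = 0.00748 across 24733 shared regions.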
